A study of Mus musculus with 6 samples.

Results

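miR-221 and miR-222 are a pair of mouse microRNAs made from neighbouring hairpins on the X chromosome. The pair was taken as the rows of the deposited count table that carry their names, which gave 4 mature miRNAs of 1966 in the table: the 3p and the 5p arm of each hairpin. They were measured by small RNA sequencing of heart tissue from 6 male wild-type (WT) mice. Of these, 3 had sham surgery (animals 47, 68 and 69) and 3 had transverse aortic constriction (TAC, animals 29, 78 and 81), an operation that narrows the aortic arch and makes the left ventricle pump against a raised pressure. Tissue was taken 8 weeks after surgery in both groups. The labels name no strain and no age.

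A microRNA is cut from a hairpin RNA, and 1 of its arms is usually kept by an Argonaute protein as the guide that pairs with target mRNAs, mainly through bases 2 to 8, called the seed. miR-221 and miR-222 are known for their role in endothelial and vascular smooth muscle cells, where their 3p arms repress the cell cycle inhibitor Cdkn1b (p27) and, in endothelium, the stem cell factor receptor Kit. In the heart both have been described in cardiomyocyte growth and in fibroblasts under pressure load.

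The 3p arms, which are the guides of the pair, share their seed, whereas the 5p arm of miR-221 has another. They are shown with the seed in capitals, 5′ to 3′, as given by RefSeq on build GRCm38.p6.
miR-221-3p: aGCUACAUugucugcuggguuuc
miR-222-3p: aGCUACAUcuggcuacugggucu
miR-221-5p: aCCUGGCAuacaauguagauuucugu
miR-1928: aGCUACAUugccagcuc
Compared base by base from the 5′ end with no gap, the 3p arms of miR-221 and miR-222 were identical in the first 8 bases and in 11 of 23 bases in all. miR-1928, of chromosome 1, was the other mouse miRNA of the RefSeq table with the seed of the 3p arms, and matched miR-221-3p in 14 of its 17 bases. It had 0 counts in every library, which allows at most 0.767 to 2.82 CPM, the count relative to a scaled library total. Of the 1966 rows, 1675 had a sequence in the RefSeq table. Among these the counted miRNAs with this seed were miR-221-3p and miR-222-3p, and the other rows could not be searched. Of the 4 mature miRNAs, 3 had a sequence in that table, and miR-222-5p is named only.

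In the hairpins, shown here with the 3p arm in capitals because nearly all reads came from it, that arm lies toward the 3′ end.
Mir221: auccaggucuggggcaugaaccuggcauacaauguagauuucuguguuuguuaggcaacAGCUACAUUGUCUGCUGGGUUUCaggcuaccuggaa
Mir222: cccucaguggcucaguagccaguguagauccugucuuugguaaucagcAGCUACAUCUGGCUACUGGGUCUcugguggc
Both lie on the minus strand of chromosome X, Mir221 at chrX:19146294-19146388 and Mir222 at chrX:19146893-19146971, with 504 bases between them, so that miR-222 comes first in the direction of transcription. In the table (build mm10) miR-221-3p lies at chrX:19146307-19146329, miR-221-5p at chrX:19146344-19146369, miR-222-3p at chrX:19146901-19146923 and miR-222-5p at chrX:19146941-19146961. GENCODE release M21 has 0 genes over the locus besides the 2 hairpins, so it is intergenic there, in no annotated exon, intron or UTR. The nearest annotated gene is Gm14636, a noncoding transcript of the same strand, 10020 bases upstream of miR-222-5p. Each of the 4 has 1 place in the table and no row of the opposite strand over it.

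Library totals were 1818725 to 3509001 counts in sham and 1226187 to 1795831 in TAC. The summed level of 5 heart muscle miRNAs was 151800 to 183100 CPM in sham and 273500 to 325900 CPM in TAC. Most of it came from miR-1a-3p and miR-133a-3p, which are not of heart muscle alone. The sum thus shows muscle tissue, and the label of heart was not tested further. CPM values here are scaled with TMM factors, which set the bulk of miRNAs level between libraries, unless said otherwise. Differences were tested with edgeR over all 354 miRNAs that passed its low-count filter, and called at an adjusted p under 0.05. In TAC relative to sham 108 miRNAs (30.5%) were called, 40 of them lower (11.3%) and 68 higher (19.2%). Other scalings turned this excess of higher calls: RLE gave 56 lower against 50 higher, the upper quartile 63 against 41, a total that omits the top 5 miRNAs 72 against 43, and the plain library total 102 against 25. Leaving out TAC 78 gave 69 calls and leaving out TAC 81 gave 64.

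The 4 arms had the same order of levels in every mouse. miR-221-3p was the most abundant at 446.3 to 818.5 CPM, followed by miR-222-3p at 107.5 to 286.4 CPM, miR-221-5p at 16.1 to 34.5 CPM and miR-222-5p at 1.34 to 2.42 CPM. No value of one arm overlapped the values of the next. By mean level over the 6 mice miR-221-3p ranked 74 and miR-222-3p 114 of 1966 rows, while miR-221-5p ranked 239 and miR-222-5p 457. In sham hearts the 3p arms together held 0.0958% to 0.125% of all counts, and in TAC hearts 0.0502% to 0.0938%.

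**Figure D1:**
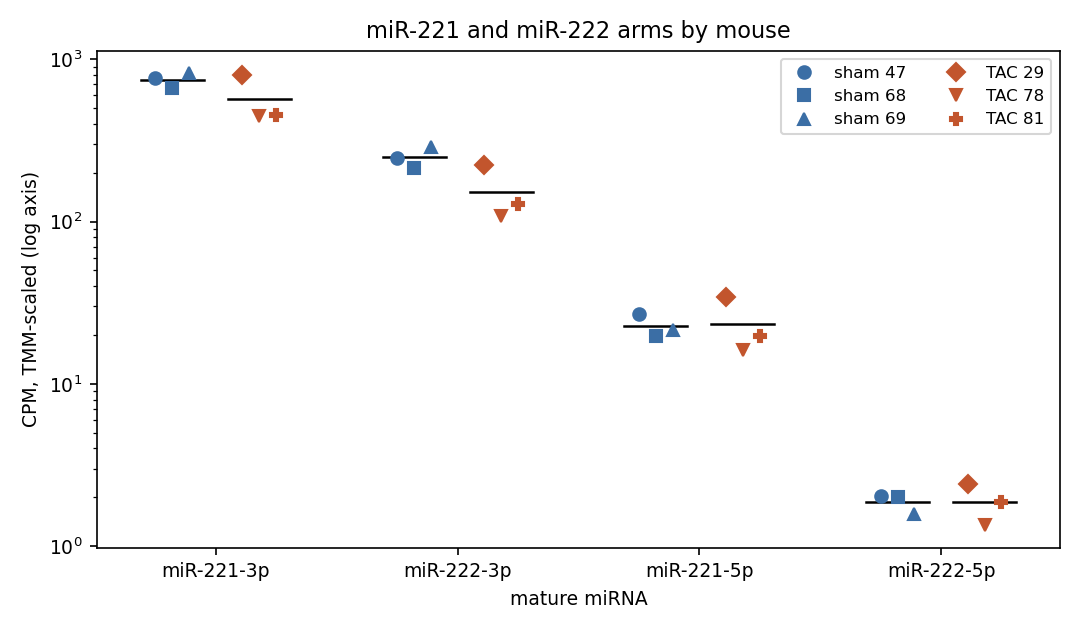
TMM-scaled CPM of the 4 arms (log axis) in each mouse, with sham in blue, TAC in orange and the group mean as a black line. TAC 29 lies near the sham mice for both 3p arms, while TAC 78 and TAC 81 lie below them.

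miR-222-3p, a guide arm, was counted 964, 428 and 731 times in sham 47, 68 and 69, and 366, 160 and 137 times in TAC 29, 78 and 81. Scaled to CPM, the sham values were 246.6, 214.9 and 286.4 and the TAC values 221.4, 107.5 and 128.8. TAC 78 and TAC 81 were below every sham mouse, and TAC 29 lay just inside the sham range, so the groups overlapped. This was also so for the other 2 tested arms, while 22.0% of tested miRNAs had all TAC mice below all sham mice. Mean levels were 249.3 ± 35.8 CPM for sham and 152.6 ± 60.6 CPM for TAC (SD over 3 mice). The fitted log2 change was -0.71 ± 0.26 (SE), with a 95% interval of -1.29 to -0.12. It was not called (edgeR adjusted p = 0.0632), although the interval of the single arm, before adjustment over all miRNAs, left out 0. In whole tissue, fewer cells that hold a miRNA and less of it per cell cannot be told apart.

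miR-221-3p, the guide arm with the same seed, was counted 2987, 1315 and 2089 times in sham 47, 68 and 69, and 1319, 664 and 483 times in TAC 29, 78 and 81. Scaled to CPM, the sham values were 764.0, 660.4 and 818.5 and the TAC values 798.1, 446.3 and 454.0. TAC 29 was above all but one sham mouse, whereas TAC 78 and TAC 81 were below all 3. Mean levels were 747.7 ± 80.3 CPM for sham and 566.1 ± 200.9 CPM for TAC (SD over 3 mice). The log2 change was -0.40 ± 0.22 (SE), with a 95% interval of -0.89 to 0.09, and was not called (edgeR adjusted p = 0.188). The interval holds no change as well as the fall to 59.7% of the sham mean seen in TAC 78.

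The 5p arms, which are mostly discarded when the guide is loaded, gave few counts. miR-221-5p was counted 105, 39 and 55 times in sham 47, 68 and 69, and 57, 24 and 21 times in TAC 29, 78 and 81. Scaled to CPM, the sham values were 26.9, 19.6 and 21.6 and the TAC values 34.5, 16.1 and 19.7, so that TAC mice were the highest and the lowest of all 6. Its log2 change was 0.06 ± 0.29 (SE), with a 95% interval of -0.60 to 0.71 (edgeR adjusted p = 0.898), and its sign turned in 11 of 17 alternative analyses. miR-222-5p was counted 8, 4 and 4 times in sham, and 4, 2 and 2 times in TAC. It did not pass the low-count filter and was not tested, which leaves 3 of the 4 arms tested and 0 of these called.

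Expressed against the sham mean, miR-222-3p stood at 43.1% in TAC 78, 51.7% in TAC 81 and 88.8% in TAC 29. miR-221-3p stood at 59.7%, 60.7% and 106.7% in the same order. All 4 arms had their highest TAC value in TAC 29, with miR-221-5p at 152.2% of the sham mean there. TAC 29 was the highest of the TAC mice for 131 of the 354 tested miRNAs (37.0%). It lay inside the sham range for 86 of them, against 95 for TAC 78 and 72 for TAC 81, so by this count it stood between the other TAC mice. For 19 of 354 miRNAs (5.37%), the 3p arms of the pair among them, TAC 78 and TAC 81 were both below sham while TAC 29 was not.

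Leaving out TAC 29 brought both 3p arms past the threshold. miR-221-3p then had a log2 change of -0.73 ± 0.14 (edgeR adjusted p = 0.00639) and miR-222-3p of -1.08 ± 0.18 (adjusted p = 0.00479). That made 2 of 3 tested arms lower, where 7.84% of 370 miRNAs were lower in the same fit. Leaving out TAC 78 or TAC 81 instead gave log2 changes of -0.26 and -0.27 for miR-221-3p and of -0.51 and -0.60 for miR-222-3p, none of them called. The calls of the 3p arms thus turn on which TAC mice are kept, and nothing in the labels sets TAC 29 apart from the others.

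The scaling also moved the calls. With library totals and no factor, the CPM of miR-222-3p were 274.9, 235.5 and 323.2 for sham 47, 68 and 69, and 203.9, 97.6 and 111.8 for TAC 29, 78 and 81. On this scale the groups did not overlap, as for 34.7% of tested miRNAs in the lower direction. There miR-222-3p had a log2 change of -1.01 ± 0.27 (edgeR adjusted p = 0.0168) and miR-221-3p of -0.70 ± 0.23 (adjusted p = 0.0394), where 28.8% of all tested miRNAs were called lower. Most of that shift belongs to all miRNAs, whose median log2 change was 0.07 with TMM factors and -0.24 with library totals. Against that median, miR-222-3p was at -0.78 with TMM factors and -0.77 with library totals, and miR-221-3p was at -0.47 with either.

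miR-222-3p was called lower in 10 of 17 alternatives and miR-221-3p in 4 of 17, and both had a negative log2 change in all 17. DESeq2 called both, with log2 changes of -0.78 ± 0.22 (adjusted p = 0.00205) and -0.48 ± 0.19 (adjusted p = 0.0365), where 15.0% of tested miRNAs were called lower. limma-voom called miR-222-3p (-0.75 ± 0.24, adjusted p = 0.0421) and not miR-221-3p (-0.45 ± 0.21, adjusted p = 0.132), with 11.6% called lower. For miR-222-3p the adjusted p stayed close to the threshold, between 0.0363 and 0.0766, with RLE size factors, upper quartile factors, totals without the 5 most abundant miRNAs, the stricter filter, counts divided by places, the robust fit and the GC trend, of which the last 2 did not call it. In the first 5 of these, 15.8%, 17.8%, 20.3%, 16.0% and 14.7% of tested miRNAs were called lower. Without a low-count filter both 3p arms were called, where 5.91% of 1100 miRNAs were called lower. That fit gave smaller SEs, 0.18 for miR-222-3p and 0.15 for miR-221-3p, against 0.26 and 0.22 with the filter. For the 3p arms that fit was thus less strict, but not for all miRNAs. It called 107 of 1100 miRNAs, against 108 of 354 with the filter, and miR-504-5p lost its call there (edgeR adjusted p = 0.165). The reason was not tested.

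**Figure D2:**
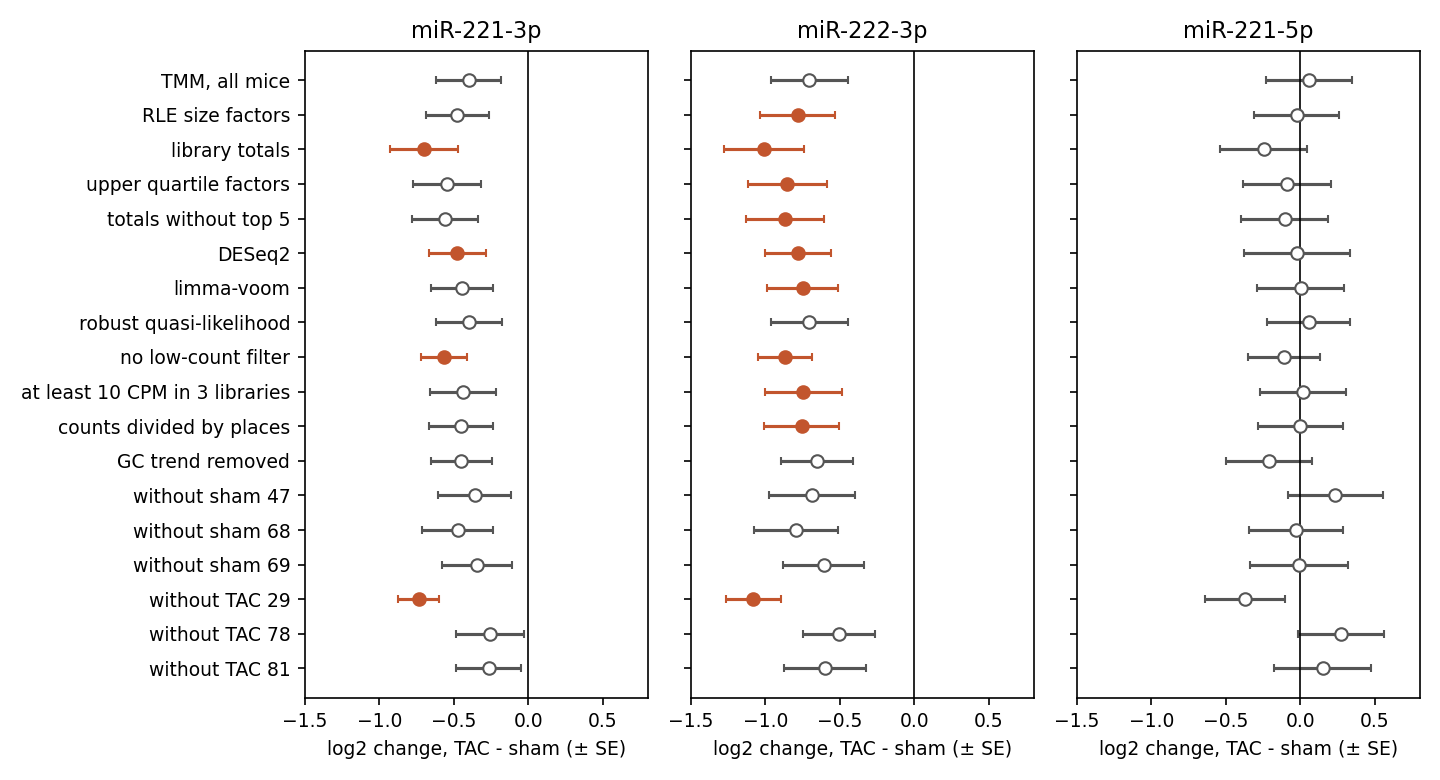
Log2 change in TAC relative to sham (± SE) for the 3 tested arms under TMM scaling with all mice and under each of 17 alternatives. Filled orange points had an adjusted p under 0.05: 4 alternatives for miR-221-3p, 10 for miR-222-3p and 0 for miR-221-5p.

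The balance within the pair needs no scaling between libraries, because both counts come from the same library. miR-222-3p made up 24.4%, 24.6% and 25.9% of the counts of both 3p arms in sham 47, 68 and 69. In TAC 29, 78 and 81 it made up 21.7%, 19.4% and 22.1%. All 3 TAC mice, TAC 29 included, were below all 3 sham mice. How often the shares of other pairs of miRNAs do the same was not tested. The 95% Wilson intervals, which cover counting error only and take reads as separate molecules, reached from 23.1% to 25.8% in sham 47 and from 19.8% to 23.8% in TAC 29, so single mice of the groups could not all be told apart by depth. The sham mice had a ratio of miR-222-3p to miR-221-3p of 0.333 ± 0.0150 and the TAC mice of 0.267 ± 0.0230 (SD over 3 mice). The mean log2 ratio was 0.32 lower in TAC than in sham (-1.59 ± 0.06 in sham, -1.90 ± 0.13 in TAC). The two-sided exact permutation p was 0.1, the smallest that 3 mice against 3 can give, so this test cannot place the difference past 0.05. Leaving out each mouse in turn gave differences of -0.36 to -0.24.

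The share of the 3p arm differed in the same direction in both hairpins, by a small amount. Of all miR-221 counts, 96.6%, 97.1% and 97.4% were 3p in sham 47, 68 and 69, against 95.9%, 96.5% and 95.8% in TAC 29, 78 and 81. The groups did not overlap, but the Wilson intervals of sham 47 (95.9% to 97.2%) and TAC 78 (94.9% to 97.6%) did. How often the groups fail to overlap in the arm shares of other hairpins was not tested. The mean difference was -0.98 percentage points (exact permutation p = 0.1, two-sided, the smallest possible). For miR-222 the 3p arm made up 99.1% to 99.5% of counts in sham and 98.6% to 98.9% in TAC, which rests on 2 to 8 counts of the 5p arm per library. Its mean difference of -0.49 percentage points (exact permutation p = 0.1, two-sided) was within the counting error of single libraries. By the 3p arms miR-221 was 2.86 to 4.15 times as abundant as miR-222, and by the 5p arms 9.75 to 14.2 times.

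**Figure D3:**
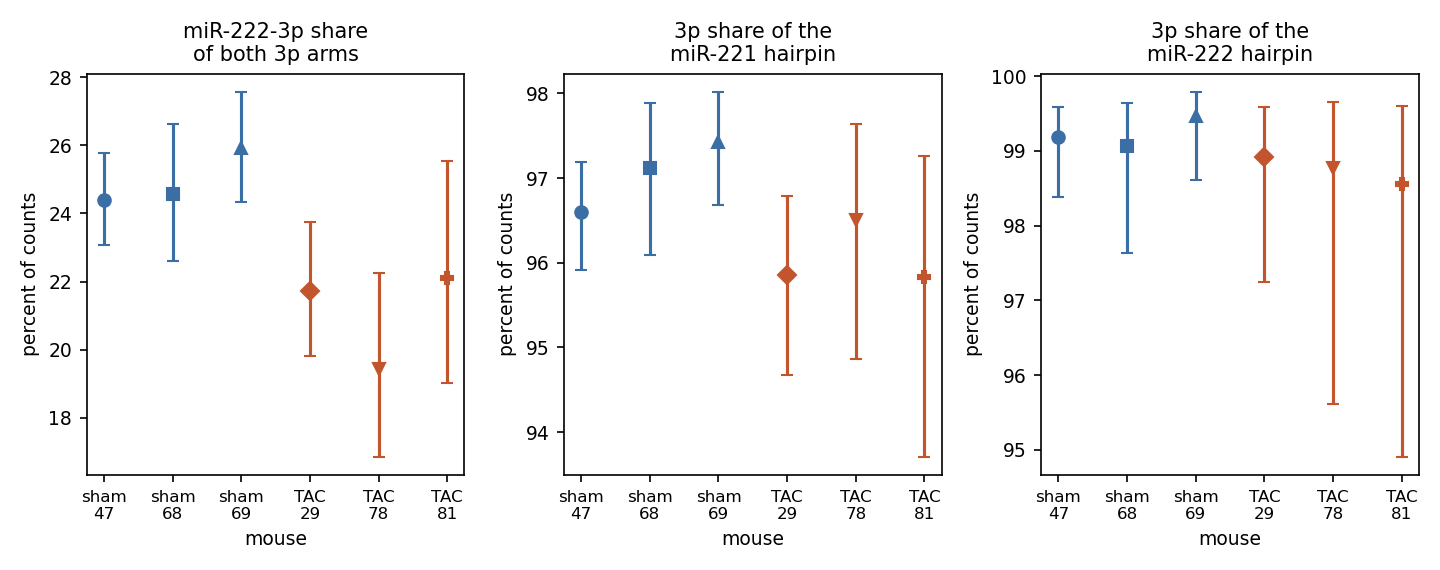
Share of miR-222-3p in the counts of both 3p arms (left) and share of the 3p arm in each hairpin's counts (middle and right), in percent for each mouse, with 95% Wilson intervals as bars; each axis starts above 0. The 3 TAC mice lie below the 3 sham mice in each panel, and in the right panel all intervals overlap.

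Among all 354 tested miRNAs, ranked from the lowest log2 change, miR-222-3p was at rank 38, miR-221-3p at rank 77 and miR-221-5p at rank 170. The profile over the 6 mice that came nearest to miR-221-3p was that of let-7e-3p, at a root mean square distance of 0.17 log2 units between centred profiles, then miR-222-3p at 0.18 and miR-674-3p at 0.19, where the median of all other tested miRNAs was 0.49. miR-221-3p was in turn the second nearest to miR-222-3p, between miR-543-3p (0.16) and miR-129-5p (0.20). The CPM of miR-543-3p were 16.6, 17.6 and 21.6 for sham 47, 68 and 69, and 12.7, 8.07 and 9.40 for TAC 29, 78 and 81, with TAC 29 again the highest of the TAC mice. The profile of miR-221-5p followed its own hairpin's guide less closely: miR-221-3p ranked 14 among its neighbours at 0.26, behind miR-140-3p (0.20), miR-140-5p (0.22) and miR-361-3p (0.23). miR-221-3p and miR-222-3p thus resembled each other more than either resembled miR-221-5p. However, miR-221-5p had only 21 to 105 counts per library, and the part of counting error in its distances was not tested.

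**Figure D4:**
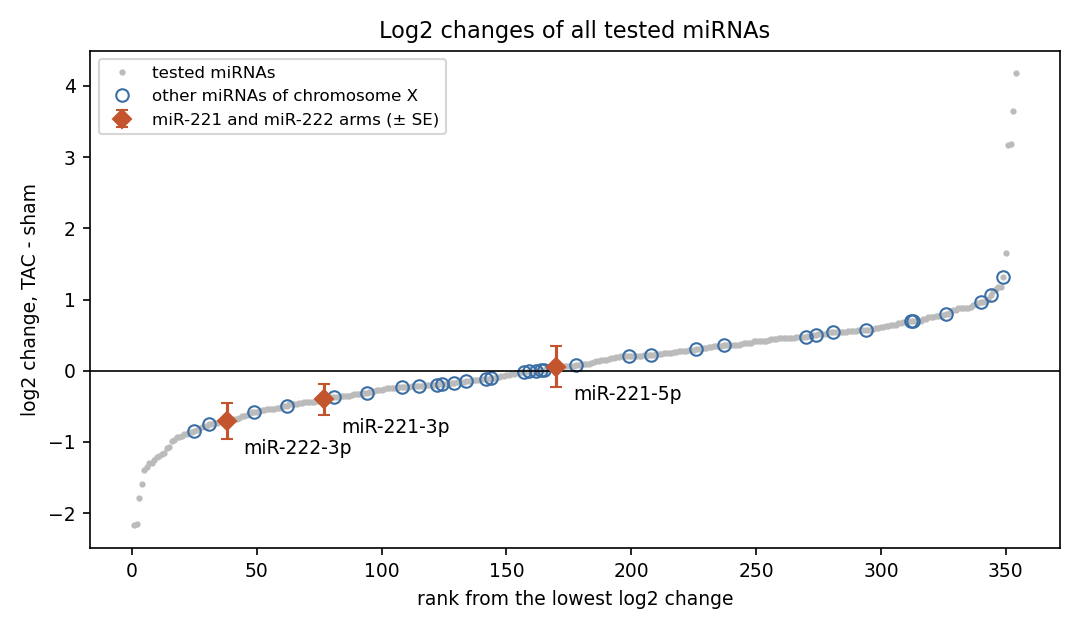
Log2 change in TAC relative to sham of the 354 tested miRNAs, in order from the lowest. Orange diamonds with bars of 1 SE are the tested arms of the pair, at ranks 38, 77 and 170, and blue circles are the 34 other tested miRNAs of chromosome X.

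The pair shares its chromosome with 160 other rows of the table, of which 34 were tested. Of these 6 were higher, 4 lower and 24 not called, where 19.2% of all tested miRNAs were higher and 11.3% lower. The median log2 change was 0.01, against 0.07 over all tested miRNAs. The balance on chromosome X turned with the scaling: RLE gave 2 higher and 5 lower, a total that omits the top 5 miRNAs 2 and 6, the upper quartile 1 and 6, and the plain library total 1 and 8. With these scalings 15.8% to 28.8% of all tested miRNAs were lower, and 25 to 50 of 354 were higher. Removing the GC trend left 2 higher and 1 lower, where 50 of all 354 tested miRNAs were higher and 31 lower. miR-224-5p fell by 0.85 on the log2 scale, from 48.0 ± 7.62 to 26.7 ± 4.02 CPM (SD over 3 mice, edgeR adjusted p = 0.0115), and lost its call without TAC 78 (adjusted p = 0.0567). miR-504-5p rose by 0.48, from 1189 ± 75.2 to 1658 ± 144.8 CPM (edgeR adjusted p = 0.00833), and lost its call with library totals (adjusted p = 0.266), with upper quartile factors (0.0519) and without a low-count filter (0.165). The other lower calls named by the rule were miR-351-5p and miR-501-3p, and the other higher ones were miR-19b-3p and let-7f-5p, which also have a place on another chromosome. miR-19b-3p kept its call in all 17 alternatives, miR-351-5p and miR-501-3p in 11 each and let-7f-5p in 3. The counts moved with the mice kept. Without sham 47, 68 and 69, 2, 1 and 1 were lower, and 2 were higher each time. Over all tested miRNAs 25 of 368, 26 of 365 and 25 of 362 were then lower, and 57, 48 and 48 higher. Without TAC 29, 78 and 81, 2, 0 and 1 were lower and 4, 2 and 3 higher. Over all tested miRNAs 29 of 370, 25 of 371 and 18 of 374 were then lower, and 54, 44 and 46 higher.

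Of 21 tested miRNAs known in vessel growth, a process for which the pair is known, 3 were higher, 3 lower and 15 not called. Over all tested miRNAs 19.2% were higher and 11.3% lower. The median log2 change was 0.01 in this list and 0.07 over all tested miRNAs. miR-143-3p of smooth muscle (log2 change of 0.64 ± 0.11), miR-19b-3p (1.07 ± 0.21) and miR-20a-5p of the same cluster (0.56 ± 0.18) rose, the last with a call in 5 of 17 alternatives, lost among others with RLE size factors (adjusted p = 0.068), library totals (0.3015), the GC trend removed (0.223) and each mouse but TAC 78 left out (0.0801 to 0.135). miR-21a-5p, known to promote smooth muscle proliferation (-1.15 ± 0.15), the hypoxia miRNA miR-210-3p (-0.73 ± 0.17) and miR-296-3p (-2.17 ± 0.27) fell. In this list 5 to 8 were lower with other scalings, where 15.8% to 28.8% of all tested miRNAs were lower.

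Of 19 tested miRNAs known in cardiac fibroblasts and fibrosis, 6 were higher, 5 lower and 8 not called. Over all tested miRNAs 19.2% were higher and 11.3% lower. The median log2 change was 0.21 in this list and 0.07 over all tested miRNAs. The fibroblast miRNA miR-214-3p (-1.58 ± 0.18) and miR-199a-5p (-0.89 ± 0.16), made partly from the same transcript, fell beside miR-21a-5p. miR-101a-3p (0.76 ± 0.09), miR-30c-5p (0.67 ± 0.12) and miR-133a-3p (0.62 ± 0.13), which are known to restrain fibrosis, rose, and the last 2 lost their call with library totals (adjusted p = 0.0596 and 0.078). Also called higher, though not among those named by the rule, were miR-208a-3p (0.56), miR-29b-3p (0.62) and miR-29c-3p (0.70). Without sham 68 or without TAC 81, 3 members of the list were lower, where 26 of 365 and 18 of 374 tested miRNAs were lower. With library totals 1 was higher, where 25 of all 354 tested miRNAs were higher.

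Markers of cell types that a heart sample holds are given as summed levels. The 5 smooth muscle miRNAs summed to 34660 to 43290 CPM in sham and 59580 to 62610 CPM in TAC, with 3 higher, 0 lower and 2 not called. Over all tested miRNAs 19.2% were higher and 11.3% lower. Of the 4 endothelial miRNAs, miR-126a-3p, miR-126a-5p and miR-126b-5p were at 0 in every library, and miR-126b-3p summed to 5.63 to 7.45 CPM in sham and 5.64 to 8.07 CPM in TAC. All 4 lie over a row of the opposite strand. Whether this overlap bears on their counts was not tested, so they are not read as a measure of endothelium. The 5 leukocyte miRNAs summed to 213.1 to 230.4 CPM in sham and 335.4 to 352.5 CPM in TAC. Of the 4 tested, miR-150-5p was called higher, while miR-155-5p (log2 change of 0.56), miR-142a-5p (0.36) and miR-223-3p (-0.19) were not called. The 3 red blood cell miRNAs summed to 963.3 to 1123 CPM in sham and 1598 to 2996 CPM in TAC. Of the 2 tested, miR-451a was called higher and miR-144-3p (0.28) was not called. In these lists miR-142a-3p and miR-486a-5p were at 0 in every library, and both lie over a row of the opposite strand. The part of the overlap in these values was not tested, and a 0 there is not read as absence of these cells. The part of these cell types in the values of miR-221 and miR-222 was not tested.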

How the data were processed

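The values are raw read counts of mature miRNAs, in a table the authors deposited with a column for each mouse. All 6 columns were matched to a mouse by animal number, and 0 were left over. The submitters' processing notes name mm10 as build and the tools HISAT2, StringTie and DESeq2, but not what each did. How reads were trimmed and counted, and whether by strand, is not given in the sources used here. Some rows list several genomic places, whose reads may be counted more than once, but the 4 arms have 1 place each. The labels give every library a separate animal number and name no batch. Libraries of a group differed beyond counting error (37.9 to 79.4 chi-square units per degree of freedom).

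Counts were tested with edgeR 4.0.16 in R 4.3.3 (quasi-likelihood F-test, TMM factors, filterByExpr, Benjamini-Hochberg adjustment, no covariate), which was tested on simulated data. Shares and ratios used two-sided exact permutation tests in scipy 1.17.1, with 0.5 added to counts in log ratios. Centred profiles used log2 CPM with a prior count of 2.

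Alternatives were DESeq2 1.42.0, limma-voom (limma 3.58.1), a robust fit, 4 scalings, 2 filters, counts divided by places, a GC trend (loess, span 0.75) and leaving out each mouse. The members and lists were chosen with earlier results of these data known. Named miRNAs were the 4 arms, up to 3 called miRNAs per list and direction with the smallest p, the 3 nearest profiles of each arm, and miRNAs sharing a seed.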

Additional observations from a re-analysis of the deposited data

How the results depend on the processing

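No paired analysis was possible because the animal numbers of sham and TAC mice are not shared. miR-222-5p has 2 to 8 counts per library, and its log2 change without a low-count filter was -0.15 ± 0.80 (SE). Exact permutation tests of 3 mice against 3 cannot go below 0.1. The called total was 108 and lay between 64 and 83 with 1 mouse left out. The log2 change of miR-222-3p passed the threshold with RLE size factors (-0.78), library totals (-1.01), upper quartile factors (-0.85), totals without the 5 most abundant miRNAs (-0.87), DESeq2 (-0.78), limma-voom (-0.75), no low-count filter (-0.87), at least 10 CPM in 3 libraries (-0.75) and counts divided by places (-0.76). It lay between -1.08 and -0.51 with 1 mouse left out. miR-221-3p passed with library totals (-0.70), DESeq2 (-0.48) and no low-count filter (-0.56), and lay between -0.73 and -0.26 with 1 mouse left out. miR-221-5p, at 0.06, turned to -0.025 with RLE size factors, -0.25 with library totals, -0.090 with upper quartile factors, -0.10 with totals without the 5 most abundant miRNAs, -0.026 with DESeq2, -0.11 with no filter, -0.0015 with counts divided by places and -0.21 with the GC trend, and lay between -0.37 and 0.27 with 1 mouse left out. let-7f-5p, called higher with TMM factors, was at -0.0036 by library totals and at -0.081 after removal of the GC trend. Apart from the shift of the median with library totals, the cause of these changes was not tested. The ratio and both 3p shares kept their direction in the 19 alternatives run on them. In each of these, every TAC mouse lay below every sham mouse, so leaving out 1 mouse could not turn the direction. The kept direction is thus no separate support.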
